A study of Danio rerio with 27 samples.

Results

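The 3 mCherry-positive libraries of thioacetamide (TAA) treated zebrafish livers, which the labels call endothelial cells (EC TAA), were compared with the 3 dsRed-positive libraries of control livers, the normal hepatocytes (control HEPs). These are 6 of the 27 RNA-seq libraries of the series, taken by their labels alone, and all 18336 genes of the deposited table were compared. The question was how far the treated mCherry-positive libraries match or pass normal hepatocyte levels. The study sorted hepatocytes, stellate cells and endothelial cells from adult livers of 3 reporter lines, with 3 libraries in each group. The mCherry-positive TAA libraries came from adult females of the line Tg(kdrl:ras-mCherry), in which the endothelial kdrl promoter drives mCherry, after 6 intraperitoneal injections of TAA at 500 mg/kg within 2 weeks. The control HEPs came from adult females of the line Tg(fabp10a:dsRed), in which the hepatocyte fabp10a promoter drives dsRed, after 6 injections of sterile water, although the methods also name saline. Both lines are on the AB background, and 100000 fluorescent cells were sorted for each library. The line, the sorted cell type and the treatment all differ between these groups and cannot be told apart in this comparison. In the study's read quality table the mCherry-positive TAA libraries also have more duplicates in the first read of a pair and the control HEPs more in the other, so a difference in sequencing cannot be told apart from the groups either. The methods count fewer control fish than there are reporter-positive control libraries, so these cannot each have come from a fish of their own. How fish and libraries match is not given, and p-values measure only the spread between these libraries, which may be technical.

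Hepatocytes make most plasma proteins, lipoproteins, clotting factors and complement, burn and build fat and clear foreign compounds, under the control of factors such as HNF4A and the FOXA proteins. Endothelial cells line the sinusoids and vessels of the liver and carry the VEGF receptors (kdrl, kdr, flt1), the angiopoietin receptors (tek, tie1) and VE-cadherin (cdh5). TAA is a hepatotoxin that becomes harmful once liver enzymes have oxidised it. All levels below are rlog values, a log2 scale on which counts are adjusted for library size and the deviations of genes with few reads are shrunken. Differences are the mean of the mCherry-positive TAA libraries minus that of the control HEPs, on the same log2 scale, and levels of different genes are not compared because the values are not adjusted for gene length.

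The label of the mCherry-positive TAA libraries went against their endothelial genes. The gene kdrl (ENSDARG00000105215), whose promoter drives the reporter, was at 2.05, 2.64 and 2.07 in the mCherry-positive TAA libraries, against 6.35, 6.03 and 6.16 in the control HEPs. Its mean was 12.67 ± 0.15 in mCherry-positive and 7.19 ± 2.08 in mCherry-negative control libraries (SD, n = 3 each). All 3 TAA libraries therefore lay below every control HEP library at kdrl, with a difference of -3.93 (standard error 0.53, adjusted p = 2.85e-05, limma with Benjamini-Hochberg adjustment). Over the 20 endothelial markers the mean per library was 0.79 to 1.08 in the mCherry-positive TAA libraries, 8.69 to 9.06 in the mCherry-positive control libraries and 2.79 to 3.21 in the control HEPs. Over the 21 hepatocyte markers it was 12.18 to 12.69 in the mCherry-positive TAA libraries, 7.31 to 8.54 in the mCherry-positive control libraries and 11.22 to 11.65 in the control HEPs. The libraries are therefore called here by their reporter and treatment, and no cell type is given to them. The transcripts of the reporters were not analysed here.

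Across all genes the mCherry-positive TAA libraries were closer to control HEPs than control ECs were. The median absolute difference between a mCherry-positive TAA and a control HEP library was 0.500 to 0.585 over the 9 pairs, against 0.949 to 1.15 for mCherry-positive control libraries paired with the same control HEPs. Control stellate cell libraries, paired with the same control HEPs, differed by 0.528 to 0.681, and TAA HEPs by 0.461 to 0.584. This closeness was therefore not particular to the mCherry-positive TAA libraries. Control HEP replicates differed from each other by 0.379 to 0.521, and mCherry-positive TAA replicates by 0.266 to 0.350. With limma, fitted to the 18 libraries of reporter-positive cells, 673 genes were called higher (3.67%) and 1554 lower (8.48%) in the mCherry-positive TAA libraries, at a Benjamini-Hochberg adjusted p-value under 0.05. Control ECs, against the same control HEPs, had 5814 genes higher (31.7%) and 3698 lower (20.2%). A match was read from the interval and not from a missed threshold, and for 5919 genes (32.3%) the 95% interval of the difference lay wholly within 2-fold of the control HEPs. For control ECs this count was 2922 (15.9%). Of the 5919 genes, 1755 had a control HEP mean under 3. There, shrunken values near the lower end of the scale may lie close together for genes with few or no reads. The other 10205 genes were neither called nor held within 2-fold, so for them these 6 libraries show neither a match nor a difference.

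The larger differences lay on the lower side. Of the called genes 493 were at least 2-fold higher (2.69%) and 1426 at least 2-fold lower (7.78%), and only 1 was 16-fold or more higher (0.00545%), against 129 lower (0.704%). The values did not overlap, with all 3 mCherry-positive TAA libraries higher, in 2169 genes (11.8%), and with all 3 lower in 4615 genes (25.2%). These counts take in genes near the lower end of the scale, where values of genes without reads may separate the groups. For example, PTF1A was at -2.06, -1.90 and -1.80 in the mCherry-positive TAA libraries, against -1.47, -1.66 and -1.63 in the control HEPs. It did not overlap and was not called. The part of such genes in these counts was not tested. The balance of the calls moved with the scaling. The higher calls were 30.2% of all calls with the values as deposited, 49.7% (1278 higher and 1292 lower) with each library centred on its median and 43.8% after quantile normalization, and the median difference over all genes was -0.07, 0.11 and 0.06 in the same order.

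**Figure D1:**
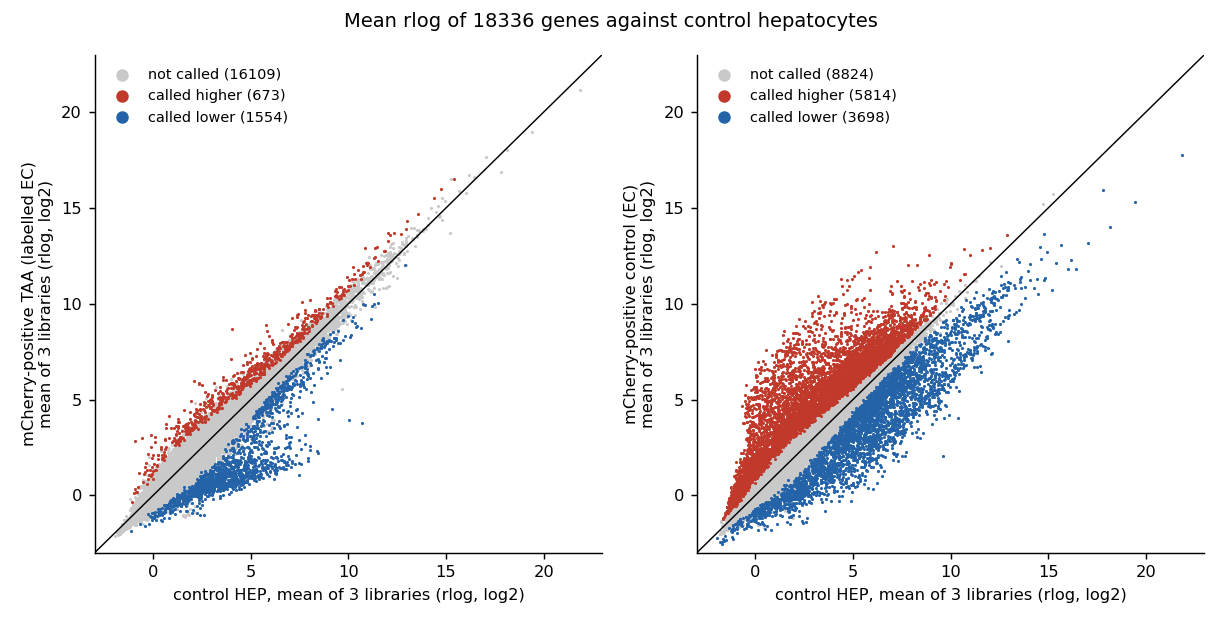
Mean rlog value (log2) of each of 18336 genes in the mCherry-positive TAA libraries (left) and in the mCherry-positive control libraries (right), against the mean in control HEPs, with 3 libraries in each mean. Points on the line are equal in both groups, red points were called higher and blue points lower, and the left cloud is narrower, with 673 higher and 1554 lower genes against 5814 and 3698 on the right.

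The plot of group means shows the left cloud drawn to the line at its upper end and a second arm of genes below the line, whose values in the mCherry-positive TAA libraries are near the lower end of the scale. Among the most abundant transcripts of control HEPs few were lower. Of the 100 genes with the highest control HEP mean, 11 were called higher, 1 lower, and 52 were within 2-fold, with a median difference of 0.21. For control ECs the median difference of the same genes was -2.44, and 96 of them were called lower. Among the 101 genes with a control HEP mean of at least 12, 10.9% were called higher and 0.990% lower, while among the 6615 genes with a mean of 3 to 6 these shares were 3.63% and 11.2%.

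**Figure D2:**
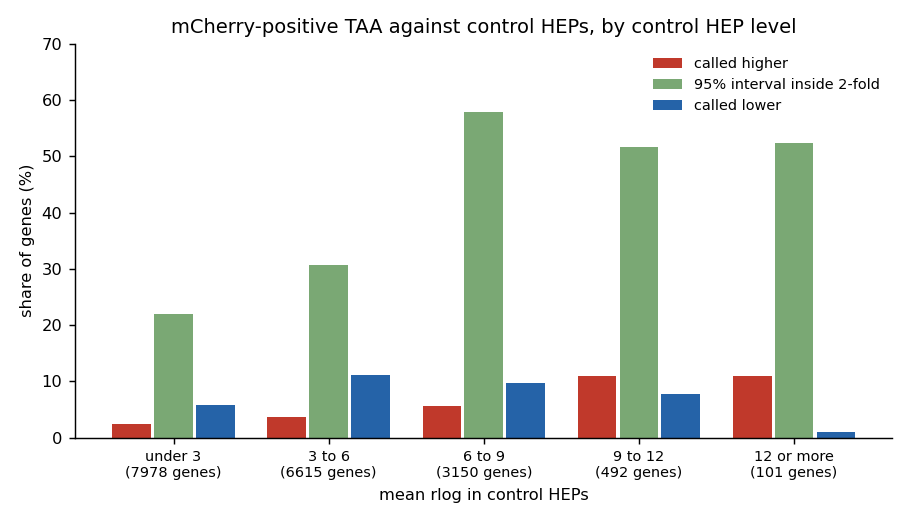
Share of genes (%) called higher, held within 2-fold by the 95% interval, or called lower in the mCherry-positive TAA libraries against control HEPs, by the mean rlog value in control HEPs. Lower calls are most frequent between 3 and 6 (11.2%) and rarest at 12 or more (0.990%), and more than 50% of the genes above 6 are within 2-fold.

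Several of the most abundant hepatocyte transcripts were within 2-fold. The gene fabp10a (ENSDARG00000038439), the liver fatty acid binding protein whose promoter marks the control HEPs, was at 13.65, 13.66 and 14.10 in the mCherry-positive TAA libraries, against 14.12, 13.58 and 13.80 in the control HEPs. Its mean was also 14.02 in control stellate cell libraries and 14.41 in mCherry-negative control libraries. The mCherry-positive TAA and control HEP libraries overlapped, and the difference was -0.03 with a 95% interval from -0.68 to 0.62. Other genes with high control HEP means in this group were eef2b (translation elongation), MT-CO1 (respiratory chain), malat1 (a nuclear noncoding RNA), RPS2 and RPL3 (ribosome), SLC25A5 (mitochondrial ADP/ATP carrier), HDLBP (an RNA binding protein) and SEC61A1 (ENSDARG00000021669, one of the identifiers with this symbol, the channel into the endoplasmic reticulum). The elastase inhibitor serpina1 was at 12.18, 12.53 and 11.65 in the mCherry-positive TAA libraries, against 12.61, 12.02 and 11.23 in the control HEPs, and the groups overlapped with a difference of 0.17 (interval -0.53 to 0.87). In the mCherry-positive control libraries its mean was 8.68.

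The hepatocyte markers as a group lay above normal hepatocyte levels, but other than fabp10a they are mostly secreted plasma proteins. The lists of enzymes, regulators and folding proteins had lower medians, from -0.20 (sterol and fatty acid synthesis) to 0.68 (fatty acid oxidation). The markers therefore do not stand for hepatocyte genes at large. Of 21 markers 11 were called higher and 0 lower, 2 were within 2-fold (fabp10a and serpina1), and the median difference was 1.07, while 3.67% of all genes were called higher and the median over all genes was -0.07. Vitronectin (vtnb), an adhesive plasma protein, was at 11.20, 10.63 and 10.50 in the mCherry-positive TAA libraries, against 9.49, 9.32 and 9.34 in the control HEPs. Every mCherry-positive TAA library was above every control HEP library at vtnb, by 1.40 on average (standard error 0.28, adjusted p = 0.00193, limma with Benjamini-Hochberg adjustment). The copper carrier ceruloplasmin (CP) was higher by 1.30 (standard error 0.31, adjusted p = 0.00797), and both calls held whichever replicate was left out. Both were lost in the fit of all 27 libraries, and that of CP also in a fit of only the 6 and after quantile normalization. Transferrin (tfa), the iron carrier of plasma, was at 17.03, 16.39 and 16.13 in the mCherry-positive TAA libraries, against 15.63, 15.44 and 15.09 in the control HEPs. Its difference of 1.13 passed narrowly (adjusted p = 0.0439), and without any of the 6 libraries other than replicate 3 of the mCherry-positive TAA group the call was lost, with an adjusted p of up to 0.144. The mean of tfa was 16.52 in the mCherry-positive TAA libraries and 16.33 in TAA stellate cells. It was 15.56 in TAA HEPs, 15.23 in control stellate cells, 15.58 in mCherry-negative control libraries and 15.39 in the control HEPs. All 21 markers were lower in control ECs, with a median of -3.49. The number of markers called higher was 15 with libraries centred on their median, 6 after quantile normalization, 7 in a fit of only the 6 libraries and 0 in a fit of all 27 libraries, which takes in the reporter-negative ones. Leaving out 1 library left 6 to 10, with 6 without replicate 1 of the mCherry-positive TAA libraries or replicate 3 of the control HEPs and 7 without control HEP replicate 2.

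**Figure D3:**
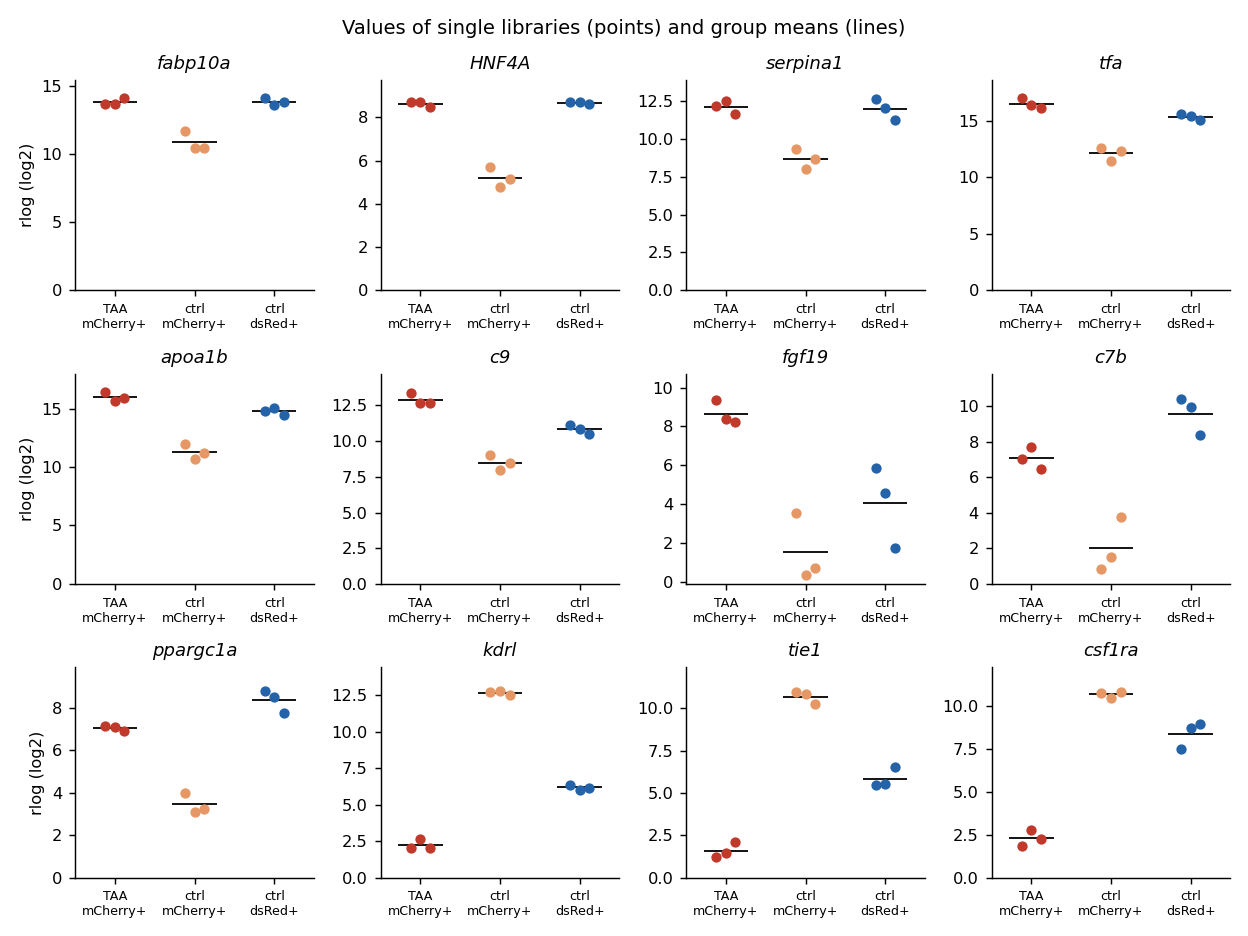
Value of each library (points, rlog, log2) and group mean (line) of 12 genes in the mCherry-positive TAA, mCherry-positive control and dsRed-positive control (control HEP) libraries, with 3 libraries each. The points of mCherry-positive TAA and control HEP libraries overlap for fabp10a, HNF4A and serpina1, lie above control HEPs for tfa, apoa1b, c9 and fgf19, and below them for c7b, ppargc1a, kdrl, tie1 and csf1ra.

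Complement, the plasma cascade that tags and pierces microbes, held many of the higher calls. Of 26 measured components 15 were called higher and 2 lower, 0 were within 2-fold, and the median difference was 1.09. Over all genes 3.67% were called higher and 8.48% lower. The pore-forming component c9 was at 13.35, 12.69 and 12.69 in the mCherry-positive TAA libraries, against 11.14, 10.83 and 10.52 in the control HEPs, with no overlap. It was 4.25-fold higher (log2 difference 2.09, standard error 0.35, adjusted p = 0.000323). The mean of c9 was 10.83 in the control HEPs and 8.50 in control ECs. It was 11.94 in TAA HEPs, 11.99 in TAA and 11.26 in control stellate cells, and 11.91 in mCherry-negative control libraries. A c9 level above control HEPs was thus not particular to the mCherry-positive TAA libraries, which stood highest of these groups. The lectin hbl4 was higher by 1.99, factor B (cfb) by 1.24, the component c5 by 1.05 and c8b, which joins the pore before c9, by 1.23. Several tandem c3a genes were also called higher (c3a.1, c3a.2, c3a.3, c3a.4 and c3a.6), but reads of such near-identical copies may be split between them, so the single values are uncertain. The related genes cfhl1, cfhl2 and cfhl5 were called higher as well. Many of the 15 calls thus come from families of related genes and are not separate results. Against the rest of the list, the other pore components c7b and c6 were lower. The gene c7b was at 7.01, 7.70 and 6.49 in the mCherry-positive TAA libraries, against 10.41, 9.97 and 8.38 in the control HEPs, a difference of -2.52 (standard error 0.58, adjusted p = 0.00648). Its mean was 6.00 in TAA HEPs, 4.71 in TAA and 3.24 in control stellate cells, and 2.03 in control ECs. Among the reporter-positive groups the control HEPs thus stood highest and the mCherry-positive TAA libraries next. The calls of c5, c3a.1, c3a.4 and c3a.6 were lost without replicate 1 of the mCherry-positive TAA libraries and without replicate 2 or 3 of the control HEPs, while those of c9, c7b and c6 held whichever replicate was left out. For c6 the difference was -2.37 (standard error 0.41, adjusted p = 0.000468), and its mean was 3.77 in TAA HEPs. The higher calls of the list were 9 after quantile normalization and 1 in the fit of all 27 libraries. They were 6 and 9 without replicates 1 and 2 of the mCherry-positive TAA libraries, and 7 and 8 without replicates 2 and 3 of the control HEPs.

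Of 23 clotting factors and their inhibitors 7 were called higher and 0 lower, and every one of the 23 had a positive difference, with a median of 0.74. Over all genes 3.67% were called higher. The kinin precursor kng1 was at 12.10, 11.60 and 11.57 in the mCherry-positive TAA libraries, against 10.30, 10.66 and 10.49 in the control HEPs. The difference was 1.27 (standard error 0.27, adjusted p = 0.00351), and the groups did not overlap. Factor IX (f9a) was higher by 1.31, the fibrinogen chain fga by 0.96 and prothrombin (f2) by 0.89. These 3 calls were each lost without replicate 1 of the mCherry-positive TAA libraries and without replicate 2 or 3 of the control HEPs, and those of f9a and fga also without replicate 3 of the mCherry-positive TAA libraries. Antithrombin (serpinc1) differed by 0.56 (interval -0.03 to 1.14) and was not called. The list had 11 higher calls with median-centred libraries, 3 after quantile normalization and 0 in the fit of all 27 libraries. It had 2 without replicate 1 of the mCherry-positive TAA libraries and 1 and 3 without replicates 2 and 3 of the control HEPs.

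Lipoprotein genes and plasma carriers showed the same direction. The gene lists share members, so their counts are not separate results. Among the hepatocyte markers, c9 and c8b are also in the complement list, and f9a, fga and serpina1 in the clotting list. Of the other markers, for example, apoa1b is in the lipoprotein list and ttr among the plasma carriers. Of 21 lipoprotein genes 8 were called higher and 0 lower (median 0.84), and of 28 plasma carriers and other secreted proteins 11 were called higher and 0 lower (median 0.88). Over all genes 3.67% were called higher. The small apolipoprotein apoc1 was at 14.00, 13.41 and 13.28 in the mCherry-positive TAA libraries, against 12.51, 11.91 and 11.98 in the control HEPs, a difference of 1.43 (standard error 0.35, adjusted p = 0.0109) that missed the threshold without replicate 1 of the mCherry-positive TAA libraries (adjusted p = 0.0591). Apolipoprotein A-I (apoa1b), the main protein of high density lipoprotein, was 2.30-fold higher and hepatic lipase (lipca) 1.89-fold. The call of apoa1b was lost without replicate 1 or 3 of either group, and that of lipca without replicate 1 or 2 of the mCherry-positive TAA libraries or replicate 2 or 3 of the control HEPs. The microsomal transfer protein MTTP, which loads lipid onto apolipoprotein B, was within 2-fold at -0.29 (interval -0.81 to 0.22). Among the carriers, serpina7, the thyroxine binding globulin, was higher by 2.15 (standard error 0.54), the selenium carrier sepp1b by 1.90, retinol binding protein RBP4 by 1.38 and transthyretin (ttr) by 1.18. Values of serpina7 were 10.99, 9.26 and 10.35 in the mCherry-positive TAA libraries, against 8.34, 7.63 and 8.18 in the control HEPs, so the lowest of one group stood above the highest of the other. The calls of serpina7 and sepp1b were lost without replicate 1 of the mCherry-positive TAA libraries, and that of serpina7 also without control HEP replicate 2. In the fit of all 27 libraries 0 lipoprotein genes and 1 carrier were called higher, and after quantile normalization 2 and 7. The lipoprotein count was 4 in a fit of only the 6 libraries and 5 without the variance trend, and the carrier count 18 with median-centred libraries. Without replicate 1 or 2 of the mCherry-positive TAA libraries the lipoprotein count was 1 or 4 and the carrier count 5 or 7. Without control HEP replicate 2 the counts were 3 and 6, and without control HEP replicate 3 the lipoprotein count was 3.

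The secreted signals of the liver were mixed. The gene fgf19 (ENSDARG00000098663), which in mammals encodes a gut hormone that represses bile acid synthesis, was the only called gene that was 16-fold or more higher. It was at 9.38, 8.38 and 8.23 in the mCherry-positive TAA libraries, against 5.84, 4.55 and 1.74 in the control HEPs, and the control values were spread widely. The difference was 4.62 (interval 2.53 to 6.70, adjusted p = 0.00376), and the call held whichever replicate was left out. The mean of fgf19 was 8.66 in the mCherry-positive TAA libraries and 4.05 in the control HEPs. It was 7.22 in TAA and 4.67 in control stellate cells, 5.98 in TAA HEPs, 5.07 in mCherry-negative control libraries and 1.53 in control ECs. The gene cyp7a1, the rate-limiting enzyme of bile acid synthesis, was at 9.08, 9.76 and 8.53 in the mCherry-positive TAA libraries, against 8.45, 9.02 and 8.06 in the control HEPs, and was not called (difference 0.61, interval -0.38 to 1.61). Insulin-like growth factor igf1, which the liver secretes under growth hormone, was lower by the model, at 7.86, 8.07 and 7.93 in the mCherry-positive TAA libraries, against 9.17, 8.86 and 8.53 in the control HEPs (difference -0.90, standard error 0.25, adjusted p = 0.0207). This call was lost with median-centred libraries, in the fit of all 27 libraries and without replicate 1 or 3 of the mCherry-positive TAA libraries or replicate 1 or 2 of the control HEPs. Its relative igf2b was within 2-fold at -0.10 (interval -0.81 to 0.61).

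**Figure D4:**
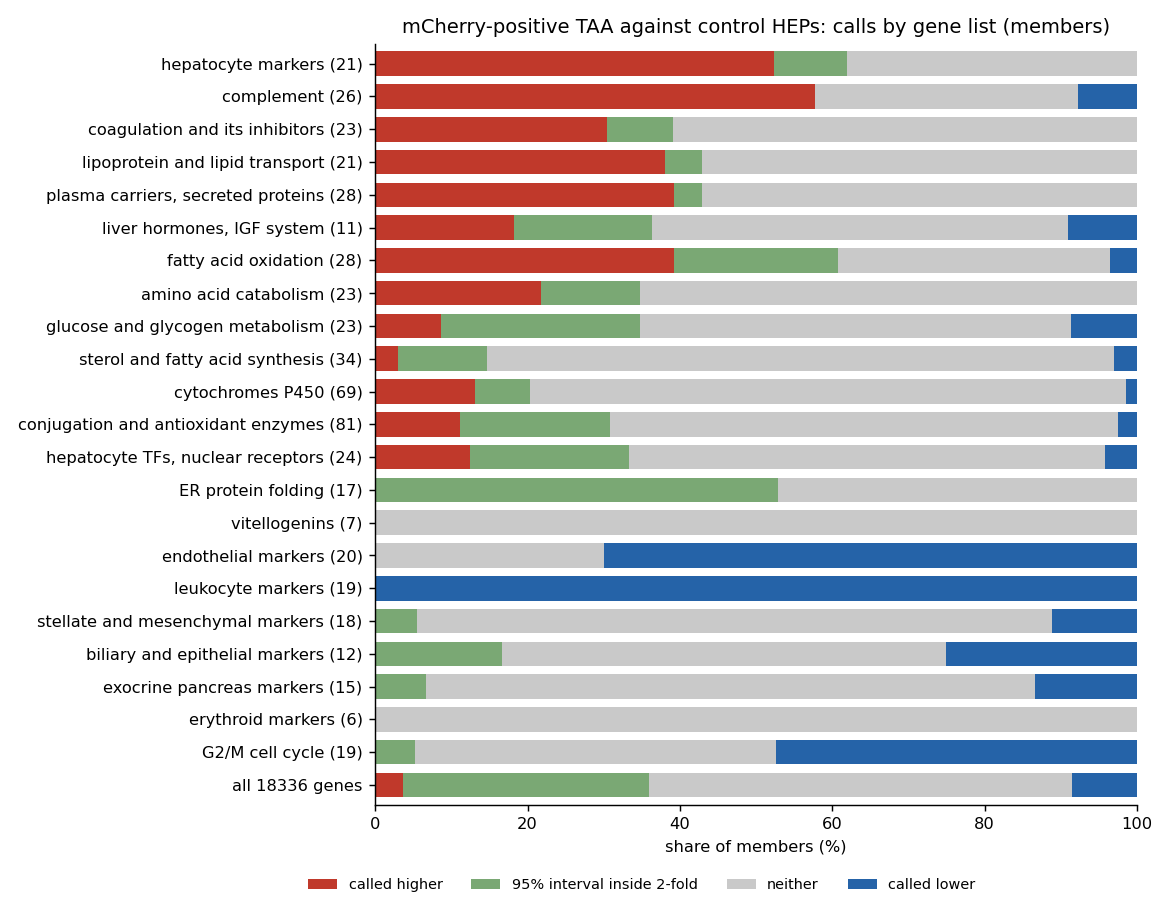
Share of the measured members (%) of 22 gene lists that were called higher, held within 2-fold by the 95% interval, neither, or called lower in the mCherry-positive TAA libraries against control HEPs, with the number of members in brackets and all 18336 genes in the lowest bar. Higher calls reach 15 of 26 in complement and 11 of 21 in the hepatocyte markers, and lower calls 19 of 19 in the leukocyte markers and 14 of 20 in the endothelial markers. Some genes are in several lists.

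Several enzymes of fat burning were higher, and few genes of fat and sterol building were called. Of 28 genes of fatty acid oxidation 11 were called higher, 1 lower and 6 within 2-fold, with a median of 0.68, and of 34 genes of sterol and fatty acid synthesis 1 was called higher, 1 lower and 4 within 2-fold, with a median of -0.20. Over all genes 3.67% were called higher, 8.48% lower and 32.3% within 2-fold. The difference between these lists was not tested. Short-chain acyl-CoA dehydrogenase (acads) was at 6.77, 6.15 and 6.27 in the mCherry-positive TAA libraries, against 3.31, 4.78 and 4.79 in the control HEPs, with no overlap. The difference was 2.11 (standard error 0.35, adjusted p = 0.000355). The very long-chain enzyme ACADVL was higher by 1.02 and the peroxisomal hydroxyacid oxidase hao2 by 1.42. Medium-chain ACADM (0.58, interval 0.16 to 0.99) and the carnitine transferase cpt1b (-0.07, interval -0.51 to 0.37) were within 2-fold. The single lower member, ppargc1a, is a coactivator that raises mitochondrial genes. It was at 7.15, 7.08 and 6.88 in the mCherry-positive TAA libraries, against 8.77, 8.50 and 7.74 in the control HEPs (difference -1.30, standard error 0.28, adjusted p = 0.00327). In the synthesis list the LDL receptor ldlra was lower (difference -1.46, standard error 0.30), the sterol reductase tm7sf2 higher by 1.37 (standard error 0.37), and the regulators SREBF1 (0.09) and srebf2 (-0.29) were within 2-fold. The call of tm7sf2 was lost without replicate 1 or 2 of the mCherry-positive TAA libraries or control HEP replicate 2. The number of fatty acid oxidation genes called higher was 2 in the fit of all 27 libraries, 7 without the variance trend, 19 with median-centred libraries and 6 without replicate 1 or 2 of the mCherry-positive TAA libraries or replicate 2 of the control HEPs.

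Of 23 genes of glucose and glycogen metabolism 2 were called higher, 2 lower and 6 within 2-fold (median 0.29). Over all genes 3.67% were called higher, 8.48% lower and 32.3% within 2-fold, so the lower calls of this list were near the share of all genes. Hexokinase 2 (hk2), the low-Km enzyme that is scarce in mammalian hepatocytes, was at 0.57, 0.80 and 0.94 in the mCherry-positive TAA libraries, against 4.09, 5.05 and 5.08 in the control HEPs. At -3.98 it was the largest fall of the list (standard error 0.52, adjusted p = 2.04e-05), and its mean was 6.13 in control ECs. The hk2 values in the mCherry-positive TAA libraries may be those of a gene without reads, so the size of this fall is uncertain. The kinase pdk2a, which holds back pyruvate oxidation, was lower (difference -1.57, standard error 0.32, adjusted p = 0.00235). The glycogen branching enzyme gbe1b was higher by 0.89 and ugp2a, which makes UDP-glucose, by 0.96. Both calls were lost without replicate 1 of the mCherry-positive TAA libraries, and that of ugp2a also without replicate 2 of the same group or replicate 2 or 3 of the control HEPs. Fructose bisphosphatase (fbp1b) was within 2-fold at -0.04. Of 23 genes of amino acid catabolism 5 were called higher and 0 lower (median 0.61), led by the glutaminase gls2a at 5.34, 5.61 and 5.61 in the mCherry-positive TAA libraries, against 3.69, 2.67 and 3.19 in the control HEPs. That difference was 2.34 (standard error 0.44, adjusted p = 0.0011). Histidine ammonia lyase (hal, 0.11) and fumarylacetoacetase (FAH, 0.30) were within 2-fold. The amino acid list had 1 higher call in the fit of all 27 libraries, 3 without the variance trend or after quantile normalization and 10 with median-centred libraries. It had 1 and 2 without replicates 1 and 2 of the mCherry-positive TAA libraries and 3 and 2 without replicates 2 and 3 of the control HEPs. The 2 higher calls of the glucose list became 0, 1 and 5 without replicates 1, 2 and 3 of the mCherry-positive TAA libraries, 0 in the fit of all 27 libraries, 1 in the fit of only the 6 or without the variance trend and 6 with median-centred libraries.

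Enzymes that act on foreign compounds were mostly not told apart from normal levels. Of 69 cytochromes P450, 9 were called higher, 1 lower and 5 within 2-fold (median 0.61), and of 81 conjugation and antioxidant enzymes 9 were called higher, 2 lower and 16 within 2-fold (median 0.48). With a mean rlog of at least 3, 47 cytochromes P450 were tested, of which 8 were higher, 0 lower and 1 within 2-fold. Over all genes 3.67% were called higher, 8.48% lower and 32.3% within 2-fold. The gene cyp1d1 was at 7.50, 6.67 and 6.25 in the mCherry-positive TAA libraries, against 4.99, 4.24 and 4.65 in the control HEPs, and the groups did not overlap (difference 2.18, standard error 0.42, adjusted p = 0.00137). The gene cyp2k18 was higher by 2.02 (standard error 0.52), while cyp1a, the aryl hydrocarbon inducible enzyme, overlapped between the groups with a difference of 0.72 (interval -0.07 to 1.51). Catalase (CAT) was higher by 0.89, the mitochondrial superoxide dismutase SOD2 by 0.70 and the cytosolic SOD1 by 0.88, all under 2-fold. Each of these 3 calls was lost without replicate 1 of the mCherry-positive TAA libraries and without at least 1 of the other libraries, in a fit of only the 6 and in the fit of all 27. The glucuronosyltransferases ugt5d1 and ugt5e1 were higher by 2.43 and 2.29, and the sulfotransferase sult1st1 was lower (difference -2.19). For ugt5d1 the mean was 5.99 in the mCherry-positive TAA libraries, 3.57 in the control HEPs and 2.51 in control ECs. It was also 5.89 in TAA HEPs, 5.63 in TAA and 6.70 in control stellate cells, and 5.60 in mCherry-negative control libraries. Its level above control HEPs was thus not particular to the mCherry-positive TAA libraries. The P450 count of 9 became 4 in the fit of all 27 libraries, 5 without the variance trend and 19 with median-centred libraries. It was 3, 4 and 4 without replicates 1, 2 and 3 of the mCherry-positive TAA libraries and 5 and 3 without replicates 2 and 3 of the control HEPs. The 9 higher conjugation and antioxidant enzymes became 3, 5 and 17 in those fits. They were 4 and 5 without replicates 1 and 2 of the mCherry-positive TAA libraries and 4 without control HEP replicate 3.

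Most regulators of hepatocyte identity were not called. Of 24 transcription factors and nuclear receptors 3 were called higher, 1 lower (ppargc1a) and 5 within 2-fold (median 0.32). Over all genes 3.67% were called higher, 8.48% lower and 32.3% within 2-fold, so the share of higher calls in this list was above that of all genes. HNF4A, the nuclear receptor that holds hepatocyte identity in mammals, was at 8.69, 8.70 and 8.50 in the mCherry-positive TAA libraries, against 8.71, 8.71 and 8.61 in the control HEPs. The groups almost coincided (difference -0.05, interval -0.57 to 0.48), and the mean in mCherry-positive control libraries was 5.20. In control stellate cell libraries the mean of HNF4A was 8.73, and in mCherry-negative control libraries 8.84. The xenobiotic receptor NR1I2 (0.20), NR5A2 (-0.17), CEBPA (0.34) and FOXA2 (0.49) were also within 2-fold. The pioneer factor foxa1 was at 6.55, 6.79 and 6.47 in the mCherry-positive TAA libraries, against 4.36, 5.05 and 5.36 in the control HEPs. Its difference was 1.68 (standard error 0.41, adjusted p = 0.0104), and its call was lost without control HEP replicate 1. The 3 higher calls became 1 in the fit of all 27 libraries and without control HEP replicate 2 or 3, and 5 with median-centred libraries. Of the 17 genes of protein folding in the endoplasmic reticulum 0 were called and 9 were within 2-fold, with a median of 0.02 (-0.02 after quantile normalization), and 0 had an unadjusted p under 0.05 in the limma fit. Those within 2-fold include the chaperone HSP90B1 (0.16) and XBP1 (0.42), the transcription factor of the unfolded protein response.

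The vitellogenins, egg yolk proteins that the liver of females secretes, were neither called nor within 2-fold in any of their 7 measured genes (median -0.14, and 0.04 with median-centred libraries), and at an unadjusted p under 0.05 the count was also 0. The gene vtg1 was at 20.21, 21.53 and 21.76 in the mCherry-positive TAA libraries, against 21.87, 21.98 and 21.74 in the control HEPs. Replicate 1 stood lowest, and over the list its mean was 16.60, against 18.38 and 18.57 in the other mCherry-positive TAA libraries and 17.73 to 18.14 in the control HEPs. Several of the vitellogenins are near-identical copies, so reads may be split between them.

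**Figure D5:**
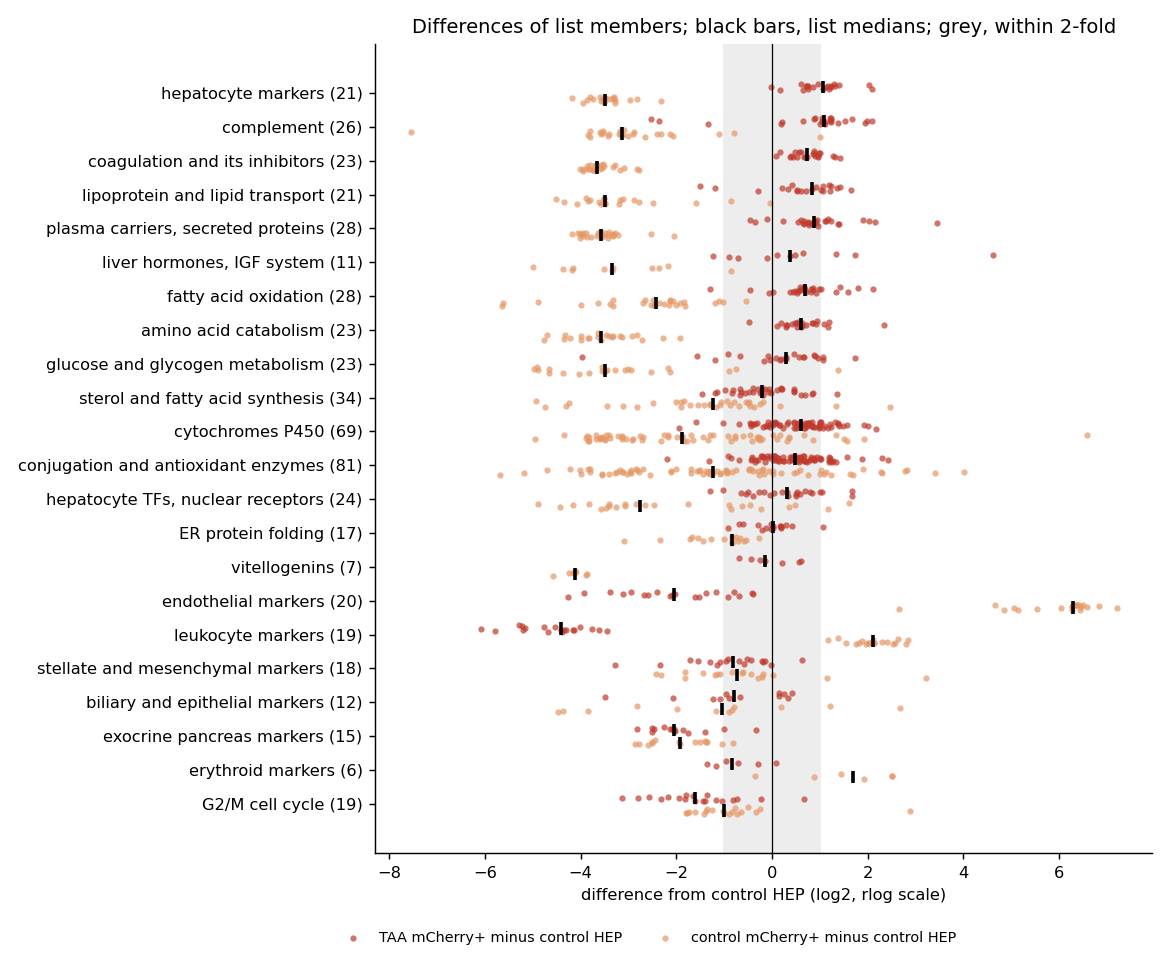
Difference from control HEPs (log2, rlog scale) of each member of 22 gene lists in the mCherry-positive TAA libraries (red, upper points of each line) and in the mCherry-positive control libraries (orange, lower points), with the list median as a black bar and 2-fold either way in grey. The red medians of the liver lists lie between -0.20 and 1.09 and the orange ones between -4.12 and -0.83, while for endothelial markers the red median is -2.06 and the orange one 6.30.

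The plot of list members sets the red points of the liver lists around or above 0 and those of the other cell types to the left of it. Both sets of differences use the same control HEP libraries and are shown side by side only. Of the 20 endothelial markers 14 were called lower and 0 higher than in control HEPs, where 8.48% of all genes were called lower. The angiopoietin receptor-like gene tie1 averaged 1.59 in the mCherry-positive TAA libraries, with a highest value of 2.11, and 5.85 in the control HEPs, with a lowest value of 5.46, a difference of -4.26 (standard error 0.50, adjusted p = 5.4e-06). VE-cadherin (cdh5) was lower (difference -3.12, adjusted p = 4.41e-05). The VEGF receptor flt1 was at 0.58, 0.84 and 0.99 in the mCherry-positive TAA libraries, against 3.02, 2.29 and 3.39 in the control HEPs, with no overlap. The count of 14 was 9 in a fit of only the 6 libraries or without replicate 1 of the mCherry-positive TAA libraries, and 6 in the fit of all 27 libraries.

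All 19 leukocyte markers were called lower, with a median of -4.41, beside 8.48% of all genes called lower. This count was 19 in each alternative other than the minimum mean rlog of 3, where it was 18 of the 18 members tested. The macrophage growth factor receptor csf1ra was at 1.88, 2.81 and 2.27 in the mCherry-positive TAA libraries, against 7.49, 8.75 and 8.97 in the control HEPs. It was 67.9-fold lower (difference -6.08, standard error 0.32, adjusted p = 1.57e-10). The leukocyte phosphatase ptprc (CD45) was also lower (difference -5.21), as were the scavenger receptor marco (-4.40), the myeloid factor spi1b (-5.30) and the chemokine receptor cxcr4b (-5.79). The mean of the list was 1.14 to 1.56 in the mCherry-positive TAA libraries, 8.03 to 8.29 in the mCherry-positive control libraries, 3.97 to 4.25 in TAA HEPs and 5.46 to 6.53 in the control HEPs. Leukocyte and endothelial transcripts were thus measured in the control HEP libraries as well, and their part in the calls was not tested. In such bulk libraries, fewer cells of a type and less RNA per cell cannot be told apart.

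Markers of other cells had few calls, beside 8.48% of all genes called lower. The stellate (2 of 18) and pancreas (2 of 15) lists were near that share, and the biliary list (3 of 12) was above it on few genes. The medians of these lists were negative, at -0.79 for biliary, -0.81 for stellate, -2.04 for pancreas and -0.84 for erythroid markers. Of 12 biliary and epithelial markers 3 were lower (epcam -3.49, cldn7b -2.08 and tm4sf4 -1.25), and the keratins krt8 (0.15) and krt18a.1 (0.26), which hepatocytes also express, were within 2-fold. The biliary count was 1 in the fit of all 27 libraries, and 1 of the 10 members tested with a mean rlog of at least 3. The call of cldn7b was lost without replicate 1 or 2 of the mCherry-positive TAA libraries or control HEP replicate 1. Of 18 stellate and mesenchymal markers 2 were lower (PDGFRB -2.34, and TAGLN, ENSDARG00000033466, -3.29). Of 15 exocrine pancreas markers 2 were called lower (cel.2 -2.81, although its groups overlapped, and cpa4 -2.04), both calls being lost in the fits of only the 6 and of all 27 libraries, with list means of 1.79 to 3.34 in the mCherry-positive TAA libraries and 2.71 to 5.55 in the control HEPs. The pancreas count became 8 without control HEP replicate 2, 1 without replicate 1 of the mCherry-positive TAA libraries or replicate 3 of the control HEPs and 0 without replicate 3 of the mCherry-positive TAA libraries or replicate 1 of the control HEPs. Of 6 erythroid markers 0 were called, and 1 had an unadjusted p under 0.05. For epcam the values were 0.55, 0.78 and 0.92 in the mCherry-positive TAA libraries, in nearly the same steps as for hk2, against 4.78, 3.24 and 4.69 in the control HEPs. The values of flt1 and of cxcr4b (1.45, 1.70 and 1.85) in these libraries rose in nearly the same steps. The rlog gives a value to a gene without reads that depends on its mean over all libraries, so such low values are not zero on a count scale and no fold against them is a bound.

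Cell cycle genes differed between the replicates. Of 19 genes of the G2 and M phases 9 were called lower and 0 higher (median -1.62), beside 8.48% of all genes called lower. TOP2A, the topoisomerase of dividing cells, was at 6.12, 2.22 and 1.52 in the mCherry-positive TAA libraries, against 5.70, 6.42 and 6.12 in the control HEPs. Replicate 1 was thus at the level of the control HEPs and the other replicates far below. The proliferation antigen mki67 had the same pattern, at 5.95, 1.32 and 1.46 in the mCherry-positive TAA libraries, against 4.43, 5.53 and 5.29 in the control HEPs, and was not called (difference -2.17, standard error 0.76, adjusted p = 0.0676). The count of 9 became 13 without replicate 1 and 1 without replicate 2 or 3 of the mCherry-positive TAA libraries. It was 4 without control HEP replicate 3 or after quantile normalization and 3 in a fit of only the 6 libraries. With a mean rlog of at least 3 only 5 members were tested, of which 3 were lower (median -2.32). The call of TOP2A was lost without replicate 2 or 3 of either group.

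The genes with the largest called differences and no overlap, within the lists or outside them, were named by rule. After fgf19, the higher ones with a known role were rnasel2 (a secreted ribonuclease, 3.44), prickle1a (planar cell polarity, 3.33), mmp23bb (a metalloproteinase, 3.07) and dnah5l (a ciliary dynein, 3.74). The gene mmp23bb was at 3.57, 3.91 and 3.68 in the mCherry-positive TAA libraries, against 0.33, 1.42 and 0.21 in the control HEPs, so all 3 stood clear of the control values. The gene dnah5l was at 5.86, 2.30 and 0.33 in the mCherry-positive TAA libraries, against -0.80, -0.98 and -0.95 in the control HEPs, so that replicate 1 carried most of its difference, and its call was lost in a fit of only the 6 libraries. For rnasel2 the means were 5.79 in the mCherry-positive TAA libraries, 7.21 in TAA HEPs, 7.86 in TAA stellate cells (HSCs), 6.50 in control HSCs, 0.30 in control ECs and 2.35 in the control HEPs.

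The lower genes named by this rule were led by cd74a. The MHC class II invariant chain cd74a was at 3.38, 3.98 and 3.98 in the mCherry-positive TAA libraries, against 10.11, 10.73 and 11.21 in the control HEPs. It was 120-fold lower (difference -6.91, standard error 0.33, adjusted p = 6.58e-11), and its partner cd74b (difference -6.11) and the mannose receptor mrc1b (-6.24) were lower too. The exporter ABCC4, which in mammals moves bile acids and nucleotides out of hepatocytes, was at 1.73, 2.00 and 1.68 in the mCherry-positive TAA libraries, against 7.94, 8.18 and 7.70 in the control HEPs (difference -6.14, standard error 0.41). Its mean was 4.29 in TAA HEPs and 6.58 in control ECs. A gene named ZNF521 in the table (ENSDARG00000116769, a symbol that other identifiers share) had means of 1.04 in the mCherry-positive TAA libraries, 8.14 in TAA HEPs, 2.04 in TAA HSCs, 3.24 in control HSCs, 7.28 in control ECs and 7.49 in the control HEPs, which gives a difference of -6.45 (standard error 0.30). Its mCherry-positive TAA values of 0.83, 1.07 and 1.22 rose in nearly the steps of epcam, so the size of this difference is uncertain.

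The co-expression clusters of the study, which it drew from these same libraries and which are therefore no independent evidence, divided in the same way. Of the 554 genes of cluster B 132 were called higher and 6 lower (median 0.76, against -3.31 for control ECs), and of the 147 genes of cluster C 38 were higher and 0 lower. All 155 genes of cluster H were lower (median -4.14), as were 85 of 145 in cluster G (median -1.72) and 48 of 82 in cluster D (median -1.82). No cluster other than B, C and F had a higher call, and of the 95 genes of cluster F 7 were higher and 4 lower. Beside these counts, 3.67% of all genes were called higher and 8.48% lower.

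The counts of called genes depended on which libraries were fitted. The 673 higher genes became 299 in a fit of all 27 libraries, and 320 and 397 without replicates 1 and 2 of the mCherry-positive TAA libraries. The 1554 lower genes became 885 in the fit of all 27 libraries. Replicate 1 of the mCherry-positive TAA libraries had 118 genes more than 2 above and 56 more than 2 below the mean of the other 2, against 72 and 45 for replicate 2 and 56 and 90 for replicate 3. Against TAA HEPs, the treated counterpart, the mCherry-positive TAA libraries had 225 genes higher (1.23%), 514 lower (2.8%) and 7430 within 2-fold (40.5%), with a median absolute difference of 0.331 to 0.445 over the 9 library pairs. Against TAA stellate cell libraries the median absolute difference was 0.387 to 0.429. TAA HEPs and TAA stellate cells share the treatment with the mCherry-positive TAA libraries. By the duplicates in the read quality table they may also share the sequencing, which cannot be told apart from the treatment.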

How the data were processed

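RNA of fluorescent liver cells was sequenced in 27 libraries, of which 6 are compared here. Per the labels and the methods, the authors ran FastQC 0.11.8 for read quality, Cutadapt 1.18 for trimming, rRNAdust against ribosomal RNA, STAR 2.6 for alignment (genome build GRCz11) and SAMtools 1.9. For 18336 genes they deposited what the rlog function of DESeq2 returns, a log2 value between -2.62 and 22.57. The counting tool, the annotation release, the rlog settings and the gene filter are not given in the sources used here. The values are not counts, so the depth of each library is unknown from the table, and precision is given by standard errors and 95% intervals from the spread between replicates.

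No filter was applied to these values. Groups were compared with limma 3.58.1 in R 4.3.3 (lmFit on group means, contrasts.fit, eBayes with trend=TRUE) on all 18 libraries of reporter-positive cells. Tests were two-sided, p-values were Benjamini-Hochberg adjusted across the whole table, and the threshold was 0.05. A gene was within 2-fold where its 95% interval lay between -1 and 1. The fit was also run on simulated data with independent normal noise around a common mean of each gene and known differences added. Libraries that share fish and the lower end of the rlog scale are not in that simulation, so it cannot check the calls made here. Tables and figures used Python 3.11.15, pandas 2.3.3, numpy 2.4.6 and matplotlib 3.10.9. No library was a copy of another. Symbols were taken from a supplementary table of the study for 1072 genes and otherwise from a table of gene names, and 17244 genes had one. Symbols are spelled as these tables give them, some in capitals, and for 333 of the 1061 genes in both tables the symbols differ.

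The comparison and the gene lists were chosen with earlier results of these data known. Named genes were the reporter driver genes, the 10 largest called differences in each direction without overlap, the 10 genes within 2-fold with the highest control HEP mean, and up to 3 members of each list in each class. Further list members named beside them were chosen after their values were seen. Alternatives were fits of only the 6 and of all 27 libraries, no variance trend, a mean rlog of at least 3, median centring, quantile normalization, calls of at least 2-fold, a replicate block and leaving out each replicate in turn. Counts of list members under the alternatives, the settings in which single list members lost their call, and the leaving out of control EC libraries were added after seeing the data. Sequences, genome positions and the reporter transcripts were not used here. Some results are not reported here.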

Additional observations from a re-analysis of the deposited data

How the results depend on the processing

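None of the 75 called genes among the 120 named changed sign under any alternative in which it was tested, and 104 of the 120 were tested with a mean rlog of at least 3. Only median centring, quantile normalization and leaving out a replicate could change a sign. The other alternatives keep the same difference of group means. Of the named genes that were not called, 33 changed sign in at least 1 alternative, 11 with median-centred libraries, 16 after quantile normalization and 7 to 12 when a replicate of either group was left out. The higher genes numbered 299 in a fit of all 27 libraries, 1278 with libraries centred on their median and 320 to 570 when a replicate was left out, with 320 without replicate 1 and 397 without replicate 2 of the mCherry-positive TAA libraries. The lower genes numbered 885 in the fit of all 27 libraries, 928 with a mean rlog of at least 3, where only 10430 genes were tested, and 1163 to 1519 when a replicate was left out. The genes within 2-fold numbered 4168 to 6161 over these settings and 4600 to 5153 when a replicate was left out. Control ECs had 3209 higher genes with the mean rlog of at least 3 and 5056 to 5563 when a replicate was left out, and 3331 to 3474 lower genes. The other values of these 5 counts stayed within 1.5 times those reported, while several counts over single gene lists moved further, as given beside the lists, and cytochromes P450 within 2-fold numbered 12 in a fit of only the 6 libraries and protein folding genes within 2-fold 5 without control HEP replicate 2. The cause of these shifts was not tested, other than the smaller number of genes or samples that an alternative holds. The replicate numbers do not pair these libraries, which come from different lines. Same-numbered libraries deviated from their group means with correlations of 0.0042, -0.0072 and 0.062 across genes, and 1 of 3 correlated best with its own number. A replicate block gave 639 higher genes, 1537 lower ones and 5952 within 2-fold, and for control ECs 5766 higher and 3701 lower. The shrinkage of the rlog limits what low genes can show, and depth is unknown.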

Other observations

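The gene groups below were chosen after the values were seen and carry no test as groups. Of 79 ribosomal protein genes 0 were called and 68 were within 2-fold of control HEPs (86.1%, against 32.3% of all genes), with a median difference of 0.21, while control ECs had a median of -2.01. Of the 13 genes encoded in mitochondria 9 were within 2-fold (median -0.07), and of 47 proteasome subunits 25 were (53.2%, median 0.01). Control ECs had medians of -1.51 and -0.01 for these groups, so the proteasome median was not particular to the mCherry-positive TAA libraries. The share within 2-fold also depends on level, and was 57.9% of all genes with a control HEP mean of 6 to 9. The 3 inducible HSP70 chaperones, which cells make under heat and other stress, were all called higher, beside 3.67% of all genes. Of these, hsp70l averaged 9.48 in the mCherry-positive TAA libraries and 7.41 in the control HEPs without overlap (difference 2.07, adjusted p = 0.000386 from limma), hsp70.3 was higher by 1.93 and hsp70.1 by 1.51. The call of hsp70.1 was lost without replicate 3 of the mCherry-positive TAA libraries or control HEP replicate 1.

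Among 11 genes of iron handling 5 were called higher and 2 lower, beside 3.67% and 8.48% of all genes. The iron exporter SLC40A1 (ferroportin) was at 10.73, 10.32 and 9.20 in the mCherry-positive TAA libraries, against 6.96, 7.47 and 8.40 in the control HEPs (difference 2.47, adjusted p = 0.000135 from limma). Hemojuvelin (HJV), which raises hepcidin in mammals, was higher by 2.12, and the ferritin gene fth1a by 1.41. Hepcidin (hamp), the hormone that blocks ferroportin, was at 6.86, 7.39 and 6.02 in the mCherry-positive TAA libraries, against 7.99, 8.16 and 7.83 in the control HEPs. It did not overlap between the groups but was not called (difference -1.23, adjusted p = 0.065). BMP6, which endothelial cells send to hepatocytes to raise hepcidin in mammals, was lower (difference -2.42). Of 31 collagens 8 were called lower and 0 higher, among them the basement membrane chains col4a1 (-2.25) and col4a2 (-2.25), of which the call of col4a1 was lost without replicate 1 or 2 of the mCherry-positive TAA libraries or control HEP replicate 2.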
